A study of Mus musculus with 7 samples.

Results

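The genes described here are those of major histocompatibility complex (MHC) class II presentation in mouse spleen cells: the peptide-binding chains H2-Aa, H2-Ab1, H2-Ea and H2-Eb1, the peptide editors H2-DMa, H2-DMb1 and H2-DMb2, the invariant chain Cd74, the protease Ctss and the regulator Ciita. They were chosen as 10 named genes, and every probe set that the platform annotation assigns to 1 of them alone was followed on each array. Of the 12393 genes that have a probe set of their own, 9 were members, with 15 of 20380 such probe sets. H2-DMb1 has none of its own. It shares 2 probe sets with H2-DMb2, whose signals belong to both genes and are given apart from the 15.

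The 7 arrays measured transcripts of spleen cells collected on day 4 after transplantation of spleen cells into irradiated mice, a model of acute graft-versus-host disease, in which donor T cells attack the host. Every recipient was a female C57BL/6 (B6) mouse aged 9 to 12 weeks that had received 10 Gray and, 4 to 6 hours later, donor splenocytes. The groups were allogeneic with an antibody against ICOSL from day 0 (2 arrays), allogeneic with the same antibody from day 3 (2 arrays), allogeneic with an isotype antibody (2 arrays) and syngeneic (1 array). Allogeneic donors were C3H mice and syngeneic donors were B6 mice. ICOSL, the ligand of the T cell costimulator ICOS, is found on B cells and other antigen-presenting cells. The ICOSL antibody was given at 500 µg first and 200 µg every other day. The sources used here do not give the start day of the isotype antibody for these arrays, and they name no antibody for the syngeneic mice.

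What the arrays can show has limits. RNA of allogeneic mice was combined before hybridisation, so p-values measure the spread between arrays, which may be technical. The donor strain, the alloresponse and the single syngeneic array cannot be told apart. In bulk RNA, fewer cells of a type and less RNA per cell cannot be told apart either. Array medians lay between 145.3 and 174.3 signal units, and the ratio of 3' to 5' Gapdh signal lay between 0.767 and 0.865 on the allogeneic arrays, against 0.957 on the syngeneic array.

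Class II molecules are pairs of an alpha and a beta chain (H2-A and H2-E in mice) that show peptides to CD4 T cells, and B cells, dendritic cells and macrophages carry them in the spleen. The invariant chain Cd74 guides new pairs to endosomes and blocks their groove, cathepsin S (Ctss) trims it there, and H2-DM exchanges the last fragment for peptide. The coactivator Ciita switches the genes of the chains, Cd74 and H2-DM on together. It acts through a promoter module whose X and Y boxes are bound by RFX, CREB and NF-Y proteins. The chains H2-Aa, H2-Ab1 and H2-Eb1 differ between mouse strains in sequence, while Cd74, Ctss, Ciita and H2-DM vary less. B6 mice do not transcribe H2-Ea normally because of a promoter deletion, and C3H mice make it. Below, H2-Ea is counted with the polymorphic chains.

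The promoters of 4 members are printed to show this module and the one searched member, Ctss, in which another regulatory core was found. RefSeq windows (GRCm38.p6) run from 250 bases before to 50 bases after each start and were matched for 6 member genes, as 7 windows. Capitals mark the Y box core TGATTGG, the X1 box core TAGCAAC, the X2 palindrome TGACGTCA or, in Ctss, the interferon-stimulated response element core, which is GAAA, any 2 bases and GAAA again. Both strands were searched, no matches overlapped, and the motifs were picked with these sequences in view. In H2-Aa (chr17:34287774-34288073, minus strand) the X2 palindrome lies at -74 to -67 and the Y core at -50 to -44 from the start. In H2-Eb1 (chr17:34305617-34305916, plus strand) the X1 core lies at -93 to -87 and the Y core at -61 to -55. In H2-DMb2 (chr17:34144999-34145298, plus strand) the Y core lies at -92 to -86. In Ctss (chr3:95526536-95526835, plus strand) the interferon core lies at -21 to -12.
H2-Aa: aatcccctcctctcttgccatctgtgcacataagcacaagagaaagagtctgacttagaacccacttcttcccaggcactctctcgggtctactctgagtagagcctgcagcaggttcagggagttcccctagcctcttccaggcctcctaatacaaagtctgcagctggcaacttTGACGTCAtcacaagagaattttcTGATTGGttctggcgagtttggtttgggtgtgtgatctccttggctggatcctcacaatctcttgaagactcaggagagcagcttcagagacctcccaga
H2-Eb1: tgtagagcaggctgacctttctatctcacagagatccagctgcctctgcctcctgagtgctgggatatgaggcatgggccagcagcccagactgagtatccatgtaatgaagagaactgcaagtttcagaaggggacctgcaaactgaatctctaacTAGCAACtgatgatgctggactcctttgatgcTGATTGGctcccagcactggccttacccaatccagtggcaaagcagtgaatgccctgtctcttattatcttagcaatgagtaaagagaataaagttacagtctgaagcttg
H2-DMb2: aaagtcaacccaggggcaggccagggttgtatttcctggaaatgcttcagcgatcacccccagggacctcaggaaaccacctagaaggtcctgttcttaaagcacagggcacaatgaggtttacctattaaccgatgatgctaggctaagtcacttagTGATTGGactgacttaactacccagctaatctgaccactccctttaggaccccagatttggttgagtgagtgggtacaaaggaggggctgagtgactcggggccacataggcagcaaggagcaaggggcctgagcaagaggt
Ctss: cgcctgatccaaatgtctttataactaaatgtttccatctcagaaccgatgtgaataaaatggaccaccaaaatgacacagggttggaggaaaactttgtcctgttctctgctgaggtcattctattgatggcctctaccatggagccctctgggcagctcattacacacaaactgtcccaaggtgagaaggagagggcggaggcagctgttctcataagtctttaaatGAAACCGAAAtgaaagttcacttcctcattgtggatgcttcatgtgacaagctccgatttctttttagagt

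The Y core was also found in the H2-DMb1 window, at -63 to -57, and so in 4 of the 7 member windows. These leave out the promoter of Cd74, which is not used here. Of 32851 mouse windows of that length, 7.82% held the Y core. The X1 core was in 3.66%, the X2 palindrome in 1.79% and the interferon core in 3.44% of those windows, and each was in 1 member window. Both H2-DMa windows held none of the 4 motifs. A match is a description of letters and not a measured binding site.

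The first question was how the class II genes of allogeneic recipients, all groups together, stood against syngeneic recipients. Signals are MAS5 signals on a linear scale, which are in arbitrary units, and changes are differences of log2(signal + 50), which understate changes of dim probe sets. Of 14 member probe sets bright enough to test, 8 fell and 1 rose (limma over all 7 arrays, Benjamini-Hochberg adjusted p under 0.05), where 9.74% of all 15372 tested probe sets were called, with 5.76% lower and 3.98% higher. The 8 that fell belong to H2-Aa, H2-Ab1, H2-Eb1, Cd74, Ctss and H2-DMb2. The 1 that rose belongs to H2-Ea. For 11 of the 14, all 6 allogeneic arrays lay below the syngeneic array, as they did for 26.4% of all tested probe sets, and for 2 they lay above it, as for 26% of all. The median member change was -1.00, against 0.01 over all tested probe sets.

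**Figure D1:**
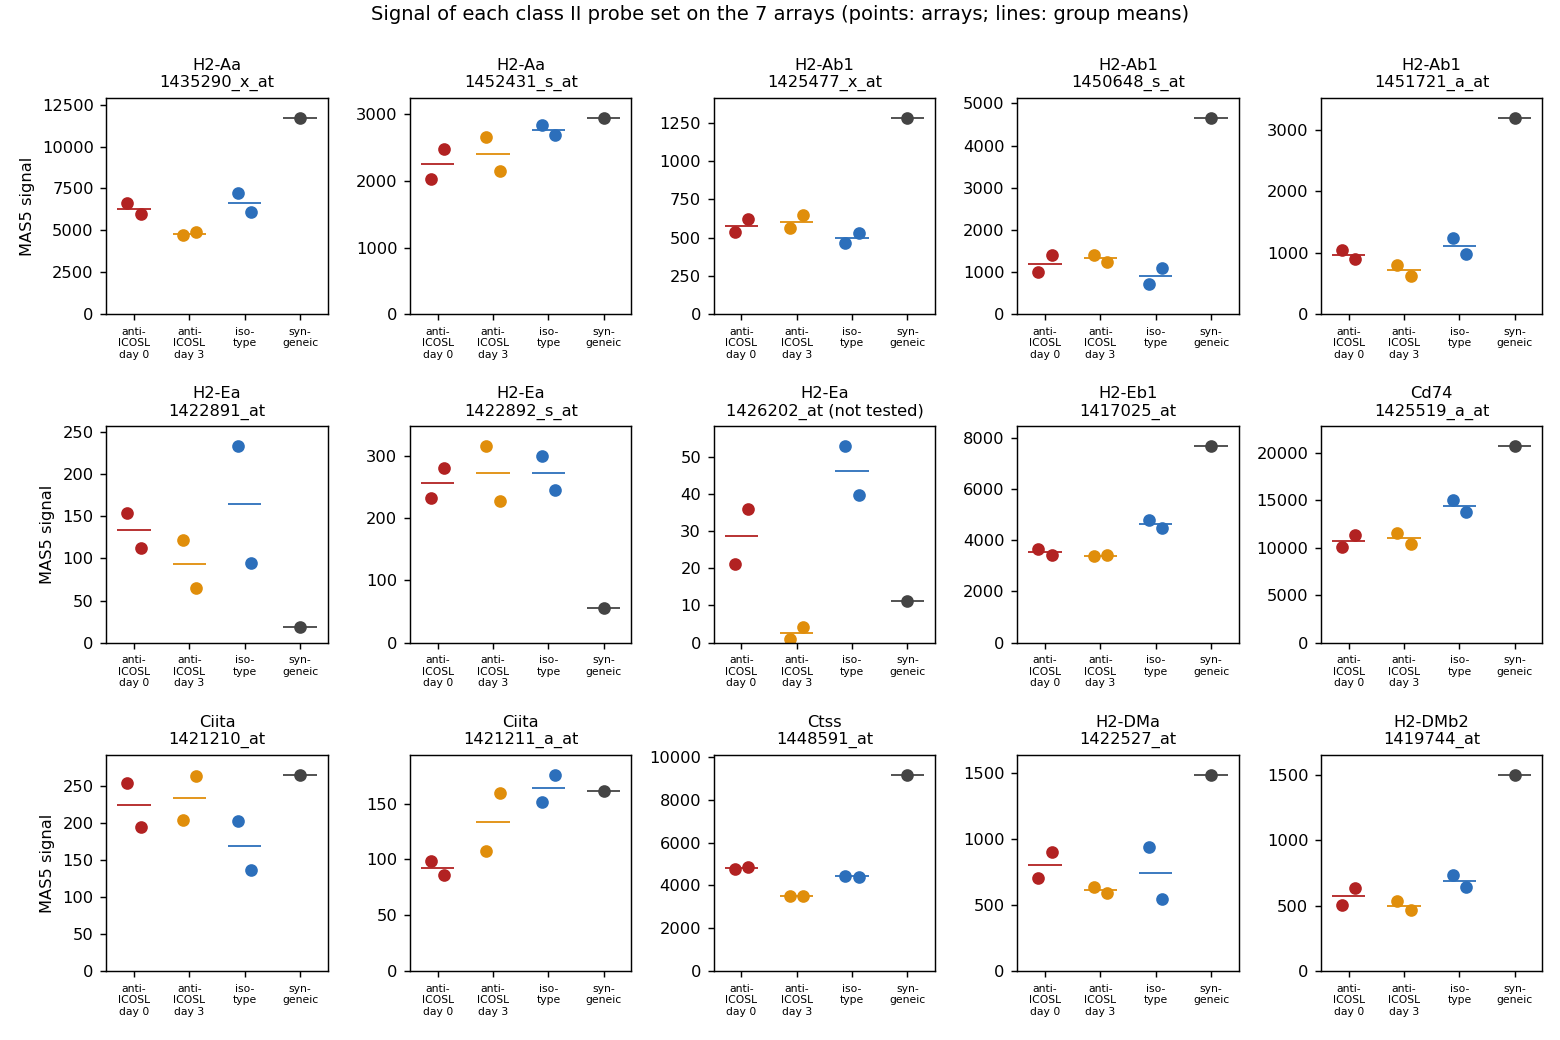
MAS5 signal (linear scale, arbitrary units) of each of the 15 member probe sets, 1 panel a probe set. Points are arrays and lines are group means. In 11 of the 14 tested panels all 6 allogeneic arrays lie below the syngeneic array, and in both tested H2-Ea panels they lie above it.

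The beta chain of H2-A, H2-Ab1, held the 2 lowest changes among the member probe sets. Its probe set 1450648_s_at had 998 and 1397 in the anti-ICOSL day 0 arrays, 1412 and 1235 in the day 3 arrays and 726 and 1086 in the isotype arrays, against 4663 in the syngeneic array. The syngeneic array stood far above all 6 others, which ran from 15.6% to 30.3% of it. The log2 change was -2.02 ± 0.28 (SE), with an adjusted p of 0.00951 (limma). Probe set 1451721_a_at had 1039 and 895 at day 0, 803 and 624 at day 3 and 1240 and 981 with isotype, against 3195 in the syngeneic array. It fell by 1.76 ± 0.22 (SE) on the log2 scale (limma, adjusted p = 0.00763). Probe set 1425477_x_at had 536 and 622 at day 0, 562 and 647 at day 3 and 463 and 531 with isotype, against 1285 in the syngeneic array. It fell by 1.14 ± 0.19 (SE) on the log2 scale (limma, adjusted p = 0.0180). So the 3 probe sets of this gene moved one way, with log2 changes up to 0.88 apart.

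The 2 probe sets of H2-Aa, the alpha chain that pairs with H2-Ab1, did not give the same size. Probe set 1435290_x_at had 6609 and 5945 at day 0, 4693 and 4900 at day 3 and 7211 and 6073 with isotype, against 11726 in the syngeneic array, with no overlap. It fell by 1.00 ± 0.19 (SE) on the log2 scale, with a 95% interval from -1.45 to -0.55 (limma, adjusted p = 0.0246). Probe set 1452431_s_at had 2024 and 2473 at day 0, 2653 and 2156 at day 3 and 2843 and 2693 with isotype, against 2952 in the syngeneic array. Here the syngeneic array was the highest by a small margin, and the change was -0.26, with an interval from -0.76 to 0.24 (limma, adjusted p = 0.473). The suffixes _x and _s mark probe sets whose probes can match more than 1 transcript, and how well each matches the C3H and B6 alleles was not tested.

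H2-Eb1, the beta chain of H2-E, had 3647 and 3438 at day 0, 3373 and 3418 at day 3 and 4804 and 4475 with isotype, against 7672 in the syngeneic array. All 6 allogeneic arrays were below the syngeneic one, at 44.0% to 62.6% of it. It fell by 1.00 ± 0.17 (SE) on the log2 scale (limma, adjusted p = 0.0182).

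Its partner H2-Ea, the alpha chain of H2-E, went the other way. Probe set 1422892_s_at had 232 and 281 at day 0, 315 and 228 at day 3 and 300 and 245 with isotype, against 56.1 in the syngeneic array. The 6 allogeneic arrays were close together and all lay above the syngeneic array. The log2 change was 1.57 ± 0.23 (SE; limma, adjusted p = 0.0111). Probe set 1422891_at had 154 and 113 at day 0, 122 and 65.2 at day 3 and 234 and 95.2 with isotype, against 18.4 in the syngeneic array. Its groups also did not overlap, but the arrays of a group differed more, and the change of 1.34 ± 0.39 (SE) did not pass (limma, adjusted p = 0.0859). Both probe sets reached the brightness needed for testing only through the allogeneic arrays, so a difference was built into their being tested. The third, 1426202_at, was too dim to test, with 21.2 and 36.0 at day 0, 1.11 and 4.15 at day 3 and 53.0 and 39.7 with isotype, against 11.2 in the syngeneic array, and its groups overlapped. The reference annotation of the B6 genome lists H2-Ea as a transcribed pseudogene.

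The less polymorphic members also lay lower in the allogeneic arrays, apart from 1 Ciita probe set whose groups overlapped. Cd74 had 10103 and 11329 at day 0, 11593 and 10436 at day 3 and 15034 and 13750 with isotype, against 20717 in the syngeneic array. The isotype arrays lay between the anti-ICOSL arrays and the syngeneic array. It fell by 0.80 ± 0.18 (SE) on the log2 scale (limma, adjusted p = 0.0447). This call was lost in 11 of 14 alternative fits, among them each of the 6 that left out 1 allogeneic array, with adjusted p up to 0.0972. The 1435290_x_at call of H2-Aa was lost in 5 of 14 alternative fits (adjusted p up to 0.0581). The other 7 calls among the 14 member probe sets held in every alternative.

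Ctss, which cleaves the invariant chain, had 4783 and 4851 at day 0, 3512 and 3496 at day 3 and 4460 and 4391 with isotype, against 9180 in the syngeneic array. The arrays of each group were nearly equal, and all 6 lay at 38.1% to 52.8% of the syngeneic array. It fell by 1.11 ± 0.16 (SE) on the log2 scale (limma, adjusted p = 0.0116).

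Among the peptide editors, H2-DMb2 (1419744_at), a beta chain of H2-DM, had 506 and 633 at day 0, 536 and 465 at day 3 and 733 and 640 with isotype, against 1501 in the syngeneic array. None of the allogeneic arrays reached 50% of the syngeneic array, the highest standing at 48.8%. It fell by 1.30 ± 0.20 (SE) on the log2 scale (limma, adjusted p = 0.0141). H2-DMa, the alpha chain, had 704 and 900 at day 0, 633 and 592 at day 3 and 940 and 544 with isotype, against 1486 in the syngeneic array. Its groups did not overlap either, but the 2 isotype arrays lay far apart, and the change of -1.03 ± 0.30 (SE) did not pass (limma, adjusted p = 0.0839). Of the 2 probe sets shared by H2-DMb2 and H2-DMb1, 1449580_s_at had 911 and 764 at day 0, 1080 and 1110 at day 3 and 1229 and 1073 with isotype, against 2110 in the syngeneic array. It fell by 1.02 ± 0.19 (SE) on the log2 scale (limma, adjusted p = 0.0241), a call lost in 4 of 14 alternative fits, 3 of them with 1 array left out (adjusted p up to 0.0567). The dimmer 1418638_at had 50.4 to 130 on the allogeneic arrays, against 161 on the syngeneic array, a change of -0.57 (limma, adjusted p = 0.156).

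Ciita, the coactivator, did not pass with either probe set. Probe set 1421210_at had 253 and 194 at day 0, 204 and 263 at day 3 and 202 and 137 with isotype, against 265 in the syngeneic array. Its change was -0.30, with a 95% interval from -0.90 to 0.29 (limma, adjusted p = 0.485). Probe set 1421211_a_at had 98.4 and 85.7 at day 0, 108 and 159 at day 3 and 152 and 176 with isotype, against 161 in the syngeneic array. The groups overlapped, and the change was -0.26, with an interval from -0.78 to 0.26 (limma, adjusted p = 0.495). Both probe sets are dim, so the added 50 compresses their changes. Their intervals therefore cannot be set directly beside the -1.11 of the much brighter Ctss probe set. On the linear scale, without the added 50, their allogeneic means were 78.8% and 80.5% of the syngeneic array, against 46.3% for Ctss. The difference between Ciita and Ctss was not tested.

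**Figure D2:**
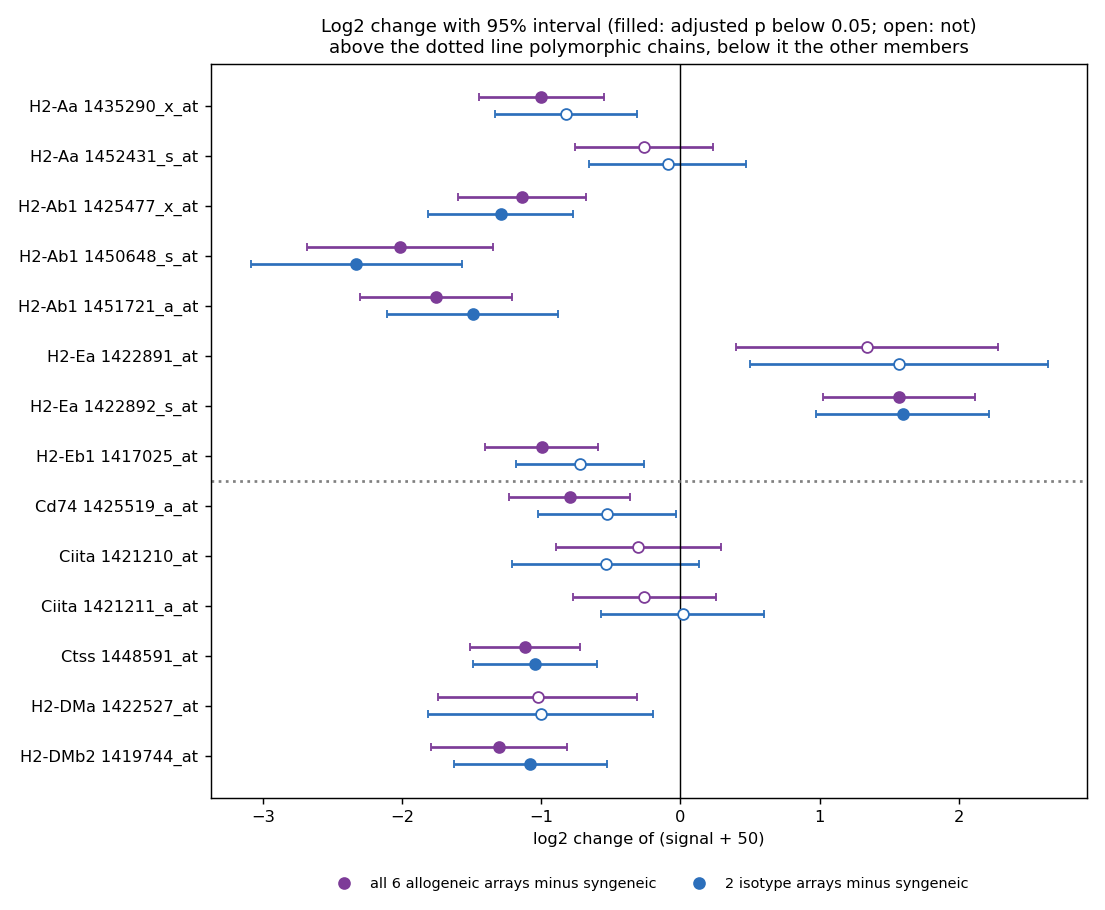
Log2 change of (signal + 50) against the syngeneic array for each of the 14 tested member probe sets, with 95% intervals from the limma fit, for all 6 allogeneic arrays and for the 2 isotype arrays. Filled points have an adjusted p under 0.05 and open points do not. The H2-Ea probe sets lie right of 0, and H2-Ab1 reaches furthest left, to -2.02 for all allogeneic arrays.

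Set side by side, the polymorphic chains had a median change of -1.00 over 8 tested probe sets, with 5 called lower and 1 higher. Without H2-Ea their median was -1.07 over 6. The less polymorphic members had a median of -0.91 over 6, with 3 called lower. Apart from H2-Ea, the changes ran from -2.02 to -0.26 among the chains and from -1.30 to -0.26 among the less polymorphic members. The lowest of the chains were the 3 probe sets of H2-Ab1, and those of H2-Aa and H2-Eb1 ran from -1.00 to -0.26. The difference between these groups of genes was not tested. Lower signals were called in Cd74, Ctss and H2-DMb2 as well as in probe sets of H2-Aa, H2-Ab1 and H2-Eb1. Ciita and H2-DMa did not pass, and the Cd74 call was lost in 11 of 14 alternative fits.

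With the isotype arrays alone against the syngeneic array, 5 of 14 tested member probe sets fell and 1 rose, where 6.62% of all tested probe sets were called, with 4.12% lower and 2.49% higher. Both isotype arrays lay below the syngeneic array for 11 member probe sets and above it for 2, where 38.8% and 38% of all tested probe sets did. Those that fell were the 3 of H2-Ab1 (log2 changes -2.33, -1.49 and -1.29), Ctss (-1.04) and H2-DMb2 (-1.08), and the 1 that rose was 1422892_s_at of H2-Ea (1.60). Cd74 had -0.53 ± 0.20 (SE; limma, adjusted p = 0.195) and H2-Eb1 -0.72 ± 0.19 (SE; limma, adjusted p = 0.0827), neither past the threshold. The count of 6 calls fell to between 1 and 4 when 1 array was left out, and to 1 without isotype array 2. Of the 6, the call of H2-Ab1 1450648_s_at was the one that held in all 15 alternative fits, with adjusted p up to 0.0453. The comparison shares its arrays with the one before and is no second experiment.

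The wider pathway was described with 33 listed genes, of which 29 had a probe set of their own here and all 29 were tested. Against the syngeneic array, 8 fell and 1 rose in the allogeneic groups, with a list median of -0.18. Of all tested probe sets, 5.76% were called lower and 3.98% higher in this comparison. In the endosome, legumain (Lgmn), an asparaginyl protease, fell by 1.37 (limma, adjusted p = 0.00918), and cathepsin B (Ctsb) fell by 1.36 (adjusted p = 0.00662). Cathepsin H (Ctsh) fell by 1.17 (limma, adjusted p = 0.0167). Lower by smaller margins of the test were the cysteine protease inhibitor Cst3 at -1.22 (limma, adjusted p = 0.0463), cathepsin D (Ctsd) at -0.76 (adjusted p = 0.0482) and the thiol reductase Ifi30 at -0.76 (adjusted p = 0.0386). H2-Oa, a chain of the H2-DM inhibitor H2-O, was at -1.08 (limma, adjusted p = 0.0262). With 1 allogeneic array left out, 3 to 6 of the 8 falls were called at a time, and Ctsd and Ifi30 were lost in every such fit. Lgmn, Ctsb and Ctsh held in all 14 alternatives.

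Among regulators and costimulators, Ifng, the cytokine that induces Ciita, had 2586 and 2606 at day 0, 1665 and 1698 at day 3 and 2262 and 2607 with isotype, against 132 in the syngeneic array. It rose by 3.63 ± 0.17 (SE) on the log2 scale (limma, adjusted p = 7.9e-04), with all 6 allogeneic arrays far above the syngeneic one. Cd86, a costimulatory ligand, had 392 and 345 at day 0, 321 and 233 at day 3 and 358 and 226 with isotype, against 1041 in the syngeneic array. It fell by 1.61 ± 0.27 (SE) on the log2 scale (limma, adjusted p = 0.0177), a call lost in 1 of 14 alternatives (0.0508). Il4, a cytokine that raises class II on B cells, had 106 and 91.2 at day 0, 69.7 and 91.5 at day 3 and 27.3 and 29.7 with isotype, against 107 in the syngeneic array. Only the isotype arrays stood apart. Il4 was bright enough to be tested only through the syngeneic array, so a difference was built into its being tested. Its change in isotype against syngeneic was -1.00 (limma, adjusted p = 0.0429), and it did not pass in any of the 6 fits that left out 1 allogeneic array. Rfx5, a DNA-binding part of the RFX complex, did not pass (-0.58; limma, adjusted p = 0.0858), nor did the remaining listed genes.

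Marker sums of B cells and macrophages, which carry class II, were lower with these genes, and that of dendritic cells, which also carry it, was not. Summed signals of 9 B cell markers were 12431 to 19093 on the allogeneic arrays, against 27443 on the syngeneic array, and 4 of 8 tested fell (Cd79a, Cd79b, Ms4a1 and Fcer2a). Between 1 and 3 of these were called with 1 array left out. Among all tested probe sets, 5.76% were called lower and 3.98% higher. Summed signals of 10 macrophage markers were 6162 to 10737, against 41511, and 9 of 10 fell, with a median of -2.10, also with any 1 allogeneic array left out. The other, the dim Siglec1, was higher on the allogeneic arrays (35.2 to 258, against 20.5). Its change of 1.26 did not pass (limma, adjusted p = 0.202). Summed signals of 7 dendritic cell markers were 3160 to 3889, against 3271, with 0 of 7 called and a median of 0.12. Of their changes, 3 were below 0 and 4 above. Irf8 and Itgax, at 1842 and 770, made up most of the sum on the syngeneic array. The dim Zbtb46, Flt3, Xcr1 and Cd209a were at 123 or less on that array. Cd209a was lower on every allogeneic array (16.6 to 107). Summed signals of 9 T cell markers were 29720 to 37804, against 22917, and 3 rose (Cd247, Cd4 and Cd28), with 2 to 3 called when 1 array was left out. Cd74 stood at 48.8% to 72.6% of the syngeneic array, the B cell marker sum at 45.3% to 69.6% and the macrophage marker sum at 14.8% to 25.9%. The part of these markers in the class II values was not tested.

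**Figure D3:**
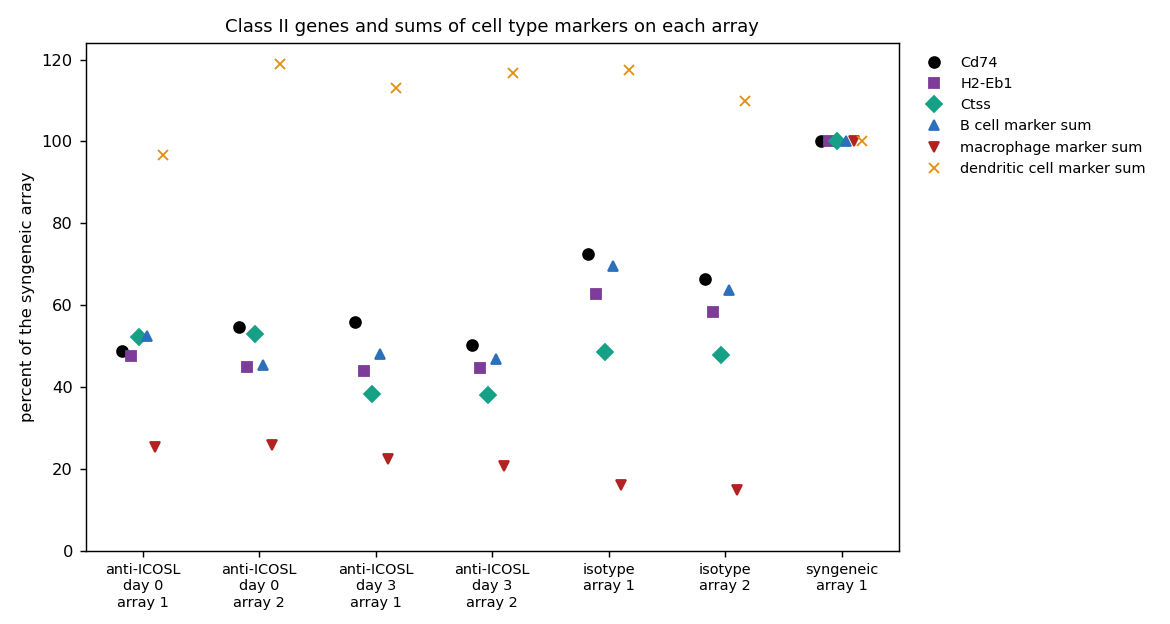
Signals of Cd74, H2-Eb1 and Ctss and summed signals of B cell, macrophage and dendritic cell markers on each array, in percent of the syngeneic array. Cd74, H2-Eb1 and the B cell sum are higher on both isotype arrays (at least 58.3%) than on the 4 anti-ICOSL arrays (at most 56.0%), while the macrophage sum is lower there.

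The next question was whether blocking ICOSL moved the class II genes. In neither schedule was any of the 14 tested member probe sets called against isotype, and among all tested probe sets 0% were called in either comparison. An unadjusted p under 0.05 was found for 3 member probe sets with the antibody from day 0, where 7.18% of all tested probe sets had one, and for 3 from day 3, where 10.2% had one. From day 0, 5 member probe sets had both anti-ICOSL arrays below both isotype arrays and 2 had both above, where 16.2% and 19.4% of all tested probe sets did. From day 3 the counts were 7 and 3, where 18.8% and 24.3% did. Median member changes were -0.12 from day 0 and -0.28 from day 3, against 0.02 and 0.03 over all tested probe sets. Both comparisons use the same 2 isotype arrays.

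The array values given above show the members behind these counts. For Cd74, both anti-ICOSL groups lay below both isotype arrays: 10716 ± 866 at day 0 and 11014 ± 819 at day 3, against 14392 ± 908 with isotype (SD, n = 2 each). The log2 changes were -0.42 from day 0 (limma, adjusted p = 0.683) and -0.38 from day 3 (adjusted p = 0.508), with 95% intervals from -0.83 to -0.02 and from -0.79 to 0.02. H2-Eb1 also lay below both isotype arrays in both anti-ICOSL groups, with 3543 ± 148 at day 0 and 3395 ± 32.0 at day 3, against 4640 ± 232 with isotype (SD, n = 2 each). Its changes were -0.38 (limma, adjusted p = 0.689) and -0.44 (adjusted p = 0.446). H2-DMb2 likewise lay below isotype on all 4 anti-ICOSL arrays, with changes of -0.25 (limma, adjusted p = 0.832) and -0.42 (adjusted p = 0.513). So did H2-Aa 1452431_s_at, at -0.30 and -0.21 (limma, adjusted p = 0.808 and 0.743). H2-Ab1 1425477_x_at instead lay above both isotype arrays in both anti-ICOSL groups, at 0.20 and 0.26 (limma, adjusted p = 0.858 and 0.648). Except for Ctss, the other probe sets in these counts stood apart from isotype in the day 0 or the day 3 group, not both. Ctss lay above isotype from day 0 and below from day 3. These values do not separate the antibody groups from isotype beyond the spread between arrays after adjustment, and the intervals allow falls of up to 0.83 in Cd74. B cell marker sums were also lower on the anti-ICOSL arrays, with 14397 and 12431 at day 0 and 13185 and 12837 at day 3, against 19093 and 17474 with isotype. Macrophage marker sums were higher, with 10501 and 10737 at day 0 and 9255 and 8592 at day 3, against 6646 and 6162 with isotype, and no single marker of either list was called. The part of these marker differences in the class II values was not tested.

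Probe sets of 1 gene could go opposite ways. For H2-Ab1 from day 3, 1451721_a_at had -0.61 (95% interval -1.11 to -0.10; limma, adjusted p = 0.442), while 1450648_s_at had 0.55 (interval -0.08 to 1.17; adjusted p = 0.527) and 1425477_x_at had 0.26. For Ciita from day 0, 1421211_a_at had -0.59 (interval -1.07 to -0.11; limma, adjusted p = 0.651), while 1421210_at had 0.33 (interval -0.22 to 0.88; adjusted p = 0.819). No direction of either gene under the antibody can therefore be read from 1 probe set. Of the shared H2-DMb2 and H2-DMb1 probe sets, 1418638_at had -0.59 from day 3 and 1449580_s_at had -0.44 from day 0, neither past the threshold (limma, adjusted p = 0.435 and 0.687).

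**Figure D4:**
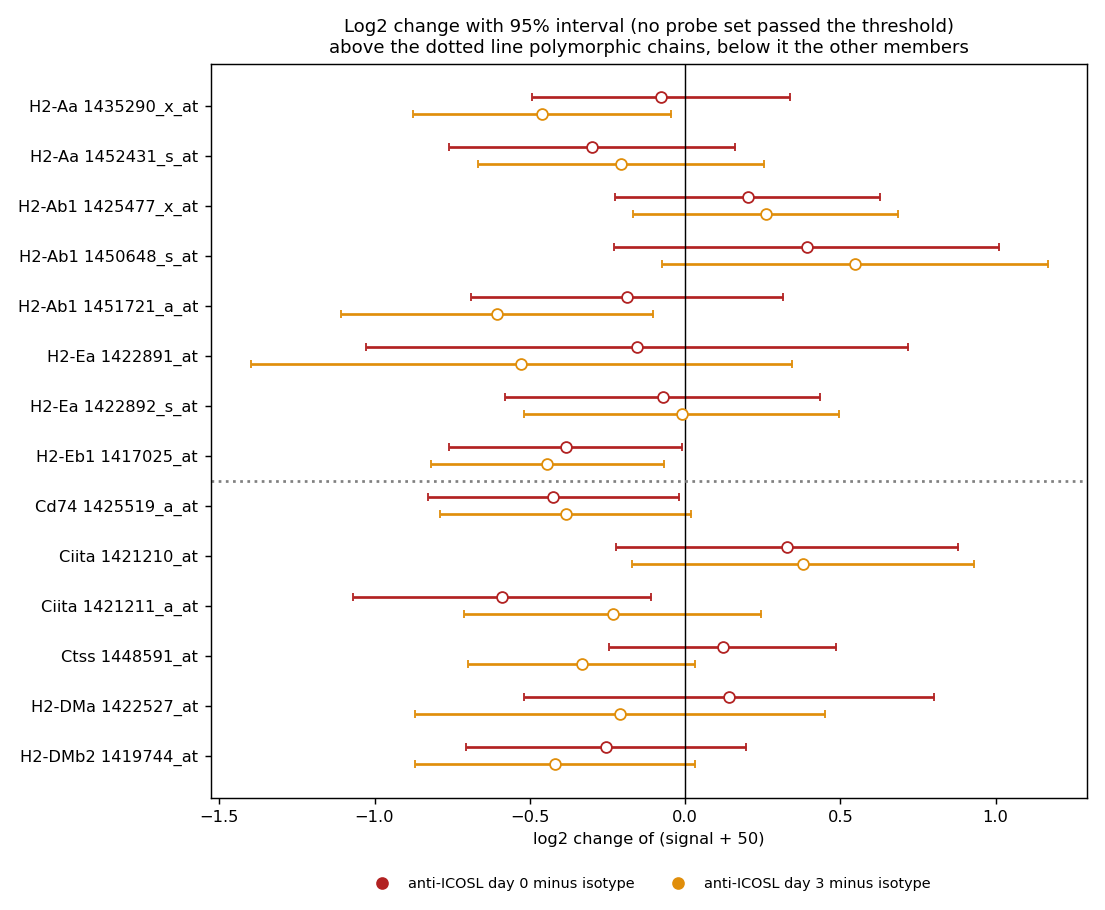
Log2 change of (signal + 50) for each of the 14 tested member probe sets, with 95% intervals from the limma fit, for anti-ICOSL from day 0 against isotype and from day 3 against isotype. Every point is open, since none had an adjusted p under 0.05.

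Set against each other, antibody from day 0 and from day 3 gave a median member change of 0.01, with 7 of 14 probe sets above 0 and 7 below, and 0 called, where 0% of all were. An unadjusted p under 0.05 was found for 1 member probe set, where 6.79% of all tested probe sets had one. Both day 0 arrays lay above both day 3 arrays for 5 and below for 1, where 18.6% and 20.4% of all tested probe sets did. Ctss had 4817 ± 47.9 at day 0, against 3504 ± 11.6 at day 3 (SD, n = 2 each), a log2 change of 0.45 with a 95% interval from 0.09 to 0.82 (limma, unadjusted p = 0.0223, adjusted p = 0.689). For H2-Aa 1435290_x_at the change was 0.38 (limma, adjusted p = 0.751), with both day 0 arrays above both day 3 arrays. Cd74 and H2-Eb1 differed by -0.04 and 0.06, with intervals from -0.44 to 0.36 and from -0.32 to 0.43.

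Genes whose pattern was most like that of 2 members were ranked by Pearson's r of log2 values among 8953 tested genes, as a description without a test, since arrays share group and scaling. For Cd74 over the 7 arrays these were Ighv14-2 (0.992), Ddx6, Ifit3, Fxr1 and Fam8a1, and over the 6 allogeneic arrays Ifi35 (0.991), Gprc5b, Plcl2, Uqcrh and Ighv14-2. For H2-Ab1 1450648_s_at they were N4bp2l1 (0.992), Ighmbp2, Ninj1, Igf1 and Gzmm over 7 arrays, and Tcea2 (0.998), C2, Yeats4, Sertad2 and Mmp24 over the 6 allogeneic arrays. The lists with and without the syngeneic array shared 1 gene for Cd74 and 0 for H2-Ab1.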

How the data were processed

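The deposited values are linear MAS5 signal intensities, 1 per probe set, and the submitters' processing notes give no MAS5 version. From 10 µg of RNA per array, per the labels' protocols, the authors made 7 arrays. The 2% trimmed means of all arrays lay between 500.18 and 500.19, so no further scaling was applied. After 64 control probe sets were left out, 22626 remained, of which 20380 had 1 symbol, 691 several and 1555 none. The 15372 probe sets tested had a mean of at least 99.67, the 40th percentile of all signals, in 1 group or more.

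Values of log2(signal + 50) were fitted with limma 3.58.1 in R 4.3.3 in 1 model of 4 groups over 7 arrays, with 3 residual and 3.36 prior degrees of freedom. The syngeneic group has 1 array, whose spread was taken from the other groups. The allogeneic value is the mean of 3 group means. P-values are two-sided and Benjamini-Hochberg adjusted within each comparison over all 15372, and called under 0.05. The number of arrays limits the precision.

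All member probe sets are named. Pathway genes are named where called in a comparison, except Rfx5, which was chosen after its values were seen. Cell type markers and pathway genes have 1 probe set each, that with the highest mean. The 5 genes most like Cd74 and H2-Ab1 are named. Members, lists and motifs were chosen with earlier results of these data known. Promoter sequences are RefSeq's. The files name no genome build, so probe sets have no coordinates. The promoter table used here gave no window for H2-Ab1, H2-Ea or Ciita, and the promoter of Cd74 is not used here.

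Alternatives were other pseudocounts, filters, scalings and limma options, a replicate block, the compared groups alone and each allogeneic array left out.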

Additional observations from a re-analysis of the deposited data

Results flagged for a closer look

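Ctss was the one member whose anti-ICOSL groups lay on opposite sides of isotype: both day 0 arrays (4783 and 4851) were above, and both day 3 arrays (3512 and 3496) below, the isotype arrays (4460 and 4391). The log2 difference of day 0 over day 3 was 0.454, with an adjusted p of 0.689 in the limma fit, so it did not pass.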

How the results depend on the processing

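With the 2 arrays of a group and 1 syngeneic array, the calls against syngeneic depended on the processing more than the directions did. The count of member probe sets called in allogeneic against syngeneic was 9 and lay between 7 and 10 under all alternatives. In isotype against syngeneic it was 6, against 2 with no filter on low signals, 10 with trend and robust options, 1 in the compared groups alone, and 1 to 4 with 1 array left out. The anti-ICOSL comparisons had 0 member calls under every alternative. Over all tested probe sets, isotype against syngeneic gave 1017 calls, against 542 with no filter, 1616 with the filter at the 60th percentile, 1786 with trend and robust options, 311 in the compared groups alone and 406 to 713 with 1 array left out, and allogeneic against syngeneic 1498, against 837 with no filter, 2337 with trend and robust options and 944 to 1301 with 1 array left out. The cause of these differences was not tested. The anti-ICOSL comparisons gave at most 21 calls. Median centring moved the median of all tested probe sets from day 3 against isotype to -0.07, against 0.03. Replicate numbers did not pair the arrays (correlations of the replicate differences -0.01 to 0.07), and with the replicate block 5 member probe sets were called in isotype against syngeneic and 9 in allogeneic against syngeneic. The syngeneic comparisons could not be made without the syngeneic array, and the compared groups alone gave no allogeneic value, since all groups enter it. Small changes that had not passed in any fit turned sign. Under median centring, day 0 against day 3 gave 0.0018 for Ciita 1421210_at and 0.014 for Cd74. With 1 array left out, day 0 against isotype ran from -0.64 to 0.33 for H2-Ea 1422891_at, from -0.20 to 0.052 for H2-Ea 1422892_s_at, from -0.20 to 0.045 for H2-Aa 1435290_x_at and from -0.23 to 0.51 for H2-DMa. Day 3 against isotype ran from -0.58 to 0.16 for H2-DMa, from -0.21 to 0.19 for H2-Ea 1422892_s_at and from -0.16 to 0.028 for the shared 1449580_s_at. Day 0 against day 3 ran from -0.21 to 0.10 for Ciita 1421210_at, from -0.12 to 0.042 for Cd74, from -0.26 to 0.14 for H2-Ea 1422892_s_at, from -0.16 to 0.042 for H2-Ab1 1425477_x_at, from -0.39 to 0.078 for H2-Ab1 1450648_s_at and from -0.24 to 0.052 for H2-Aa 1452431_s_at. Isotype against syngeneic ran from -0.066 to 0.098 for Ciita 1421211_a_at.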
